A study of Homo sapiens with 4 samples.

Results

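Exonic crosslink sites of long non-coding RNA (lncRNA) genes were examined in the iCLIP data of PDCD4 in MCF10A, an untransformed human breast epithelial cell line. In iCLIP, proteins are crosslinked to RNA with UV light, immunoprecipitated with the RNA they hold, and the cDNA made from that RNA stops next to the crosslinked base, so that a site is a single base and its score is the number of cDNAs that ended there. The immunoprecipitation was done with an antibody against PDCD4 in 2 replicates and with IgG, the isotype control that measures background, in 2 replicates, all from untreated cells of this single line. Each arm is represented by 1 site list in which the replicates are pooled, so no spread between replicates could be measured and no p-value was computed between the arms. The 95% intervals given below (Wilson intervals for shares, intervals from both counts for log2 ratios) cover counting error only.

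A site was taken when its position lay on the strand of an exon of a lncRNA gene and in no exon or intron of a protein-coding gene on that strand, with NEAT1, MALAT1, ENSG00000278996 and ENSG00000280441 left out by the name in the site's label. This gave 1363 of the 158922 PDCD4 sites and 881 of the 111361 IgG sites, 2244 of 270283 in all. They carried 3693 of 409308 PDCD4 cDNAs and 2356 of 276139 IgG cDNAs. Leaving out the named labels removed 304 PDCD4 and 670 IgG sites. Inside NEAT1, 2 PDCD4 sites with 5 cDNAs remained because their label names the microRNA gene MIR612. The deposited label held the identifier of the same lncRNA gene for 84.4% of the PDCD4 and 83.2% of the IgG sites, and only 0.293% and 0.341% carried a label that names a protein-coding gene. The cells' identity was visible in the messenger RNAs: all 10 markers of mammary epithelium examined had exonic sites (1123 PDCD4 and 271 IgG cDNAs in sum, KRT5 and KRT7 among them), and none of 5 markers of blood, liver, endothelium or heart had one.

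PDCD4 is a tumour suppressor that binds the initiation factor eIF4A and is known for repressing the translation of messenger RNAs. lncRNAs are transcripts without a long reading frame. Some act in the nucleus on chromatin, some stay in the cytoplasm, and many serve as hosts: small nucleolar RNAs (snoRNAs), which guide the modification of ribosomal RNA, are cut from the introns of host transcripts, while the spliced exons of these hosts are exported and usually degraded. Small Cajal body RNAs (scaRNAs) guide the modification of spliceosomal RNAs, and microRNAs are cut as hairpins from host transcripts of their own. Exon annotation of a lncRNA can therefore run over a small RNA gene on the same strand.

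The sequences around the highest sites show which parts of these transcripts were listed. All are on GRCh38, written 5′ to 3′ on the transcribed strand, and capitals mark the positions that the named list holds. The first 3 lie at snoRNA gene starts and the next holds a position that both lists share. They are followed by a stretch with many neighbouring PDCD4 sites in SNHG29 and by the highest PDCD4 site inside a snoRNA gene. MIR205HG is shown with the highest site of each list, and DANCR with a high site that stands alone. The last 2 carry the highest IgG sites.
SNHG29 at the SNORD65 start, PDCD4 list, chr17:16441198-16441248, plus strand: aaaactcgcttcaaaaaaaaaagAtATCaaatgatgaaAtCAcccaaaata
SNHG12 at the SNORA44 start, PDCD4 list, chr1:28580489-28580539, minus strand: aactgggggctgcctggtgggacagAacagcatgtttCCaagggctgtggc
SNHG1 at the SNORD25 start, PDCD4 list, chr11:62855608-62855658, minus strand: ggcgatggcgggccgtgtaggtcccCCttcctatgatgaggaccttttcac
GAS5 at a position of both lists, PDCD4 list, chr1:173864421-173864471, minus strand: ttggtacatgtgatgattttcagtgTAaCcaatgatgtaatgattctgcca
SNHG29 downstream, PDCD4 list, chr17:16441703-16441753, plus strand: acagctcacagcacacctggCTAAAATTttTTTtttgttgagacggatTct
EPB41L4A-AS1 inside SNORA13, PDCD4 list, chr5:112161521-112161571, plus strand: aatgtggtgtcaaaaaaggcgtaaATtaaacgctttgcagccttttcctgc
MIR205HG, PDCD4 list, chr1:209430766-209430816, plus strand: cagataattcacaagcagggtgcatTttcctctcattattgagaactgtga
MIR205HG, IgG list, chr1:209429107-209429157, plus strand: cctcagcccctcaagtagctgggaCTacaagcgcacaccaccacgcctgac
DANCR, PDCD4 list, chr4:52712639-52712689, plus strand: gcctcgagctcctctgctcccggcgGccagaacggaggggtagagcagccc
ENSG00000270066 inside SCARNA2, IgG list, chr1:109100264-109100487, plus strand: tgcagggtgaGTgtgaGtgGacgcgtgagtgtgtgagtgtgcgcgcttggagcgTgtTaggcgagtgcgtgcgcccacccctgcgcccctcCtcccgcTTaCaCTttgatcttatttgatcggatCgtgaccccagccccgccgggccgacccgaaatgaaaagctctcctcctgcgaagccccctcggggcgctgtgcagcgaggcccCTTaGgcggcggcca
ENSG00000270022 inside RNU12, IgG list, chr22:42615236-42615335, plus strand: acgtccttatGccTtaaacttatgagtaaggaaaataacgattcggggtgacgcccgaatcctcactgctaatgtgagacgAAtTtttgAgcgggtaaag

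The first comparison asks whether lncRNA exons took a larger part of the PDCD4 list than of the background list. They held 0.858% of the PDCD4 sites (95% interval 0.813 to 0.904) and 0.791% of the IgG sites (0.741 to 0.845), a log2 ratio of 0.12 whose interval spans 0 (-0.01 to 0.24). In cDNAs the shares were 0.902% and 0.853%, with a log2 ratio of 0.08 (0.01 to 0.16). The sign of this ratio depended on the setting: it was -1.70 (-2.01 to -1.39) with scores above 5, the threshold of the study's methods, -0.49 with exonic cDNAs alone as the total, and -0.12 on canonical transcripts. Without sites opposite protein-coding exons its interval spans 0 (0.03, -0.05 to 0.11). No direction is therefore read from the share as a whole. The exons of protein-coding genes stood apart from this: they took 49.2% of all PDCD4 cDNAs and 32.6% of all IgG cDNAs, a log2 ratio of 0.60 (0.59 to 0.61), and the coding sequence alone reached 1.11 (1.09 to 1.13). The log2 ratio of lncRNA exons minus that of protein-coding exons was -0.52 (-0.59 to -0.44), and minus that of protein-coding exons outside the coding sequence it was -0.20 (-0.28 to -0.12). It was above that of the introns of protein-coding genes, at -0.45, by 0.53 (0.46 to 0.61). With scores above 5 this order turned, with the introns at -1.43 (-1.50 to -1.35) and lncRNA exons at -1.70. The lncRNA value at that threshold rests on 22 PDCD4 and 18 IgG sites. Of these, 2 and 12 lay inside small RNA genes and 20 and 6 outside them. The order also applies only to the sites taken, since the labels left out carried 914 PDCD4 and 2147 IgG cDNAs in lncRNA exons. RNA abundance was not analysed here, so binding per molecule and amount of RNA cannot be told apart.

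**Figure D1:**
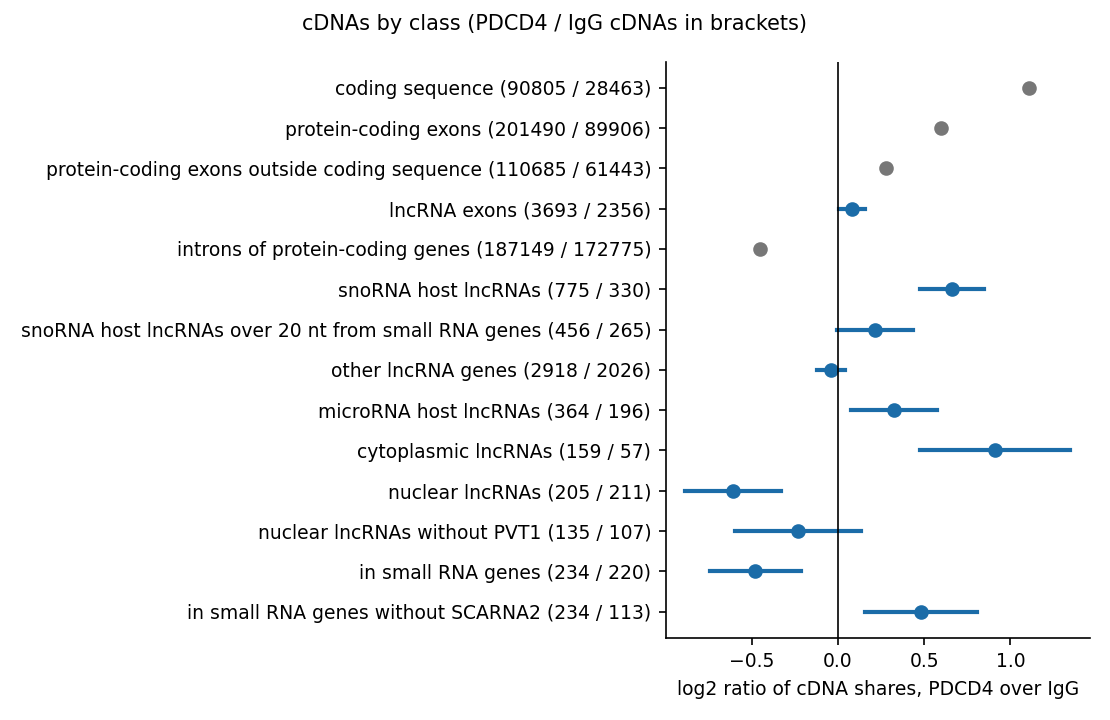
Points give the log2 ratio of the cDNA share in the PDCD4 list over that in the IgG list for each class of sites, lines the 95% counting interval, and the brackets the cDNAs of both lists; blue marks classes within lncRNA exons and grey the protein-coding classes. With all scores used and the named labels left out, lncRNA exons sit at 0.08, between the introns (-0.45) and the exons (0.60) of protein-coding genes. snoRNA host lncRNAs sit at 0.66 and other lncRNA genes at -0.04.

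Most sites were shallow. In the PDCD4 list 41.0% of the lncRNA sites had a score of 2 and 34.6% a score of 3, and in the IgG list 45.6% and 34.6%. A score above 5, the threshold named in the study's methods, was reached by 22 PDCD4 sites (1.61%, 1.07 to 2.43) and 18 IgG sites (2.04%, 1.30 to 3.21). For protein-coding exons the same shares were 1.92% and 0.824%. The high IgG sites lay mostly inside small RNA genes, where 12 of 50 IgG sites (24.0%, 14.3 to 37.4) but 2 of 79 PDCD4 sites (2.53%, 0.697 to 8.77) passed the threshold. Of these 50 IgG sites 17 lay in the single gene SCARNA2, which held most of the 12. The interval treats neighbouring sites of 1 gene as independent. Outside small RNA genes 6 of 831 IgG sites (0.722%) and 20 of 1284 PDCD4 sites (1.56%, 1.01 to 2.39) passed it. The IgG list had 7 sites with a score above 10 anywhere in the genome, and 2 of them were lncRNA sites, with scores of 22 and 15, in ENSG00000270066.

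**Figure D2:**
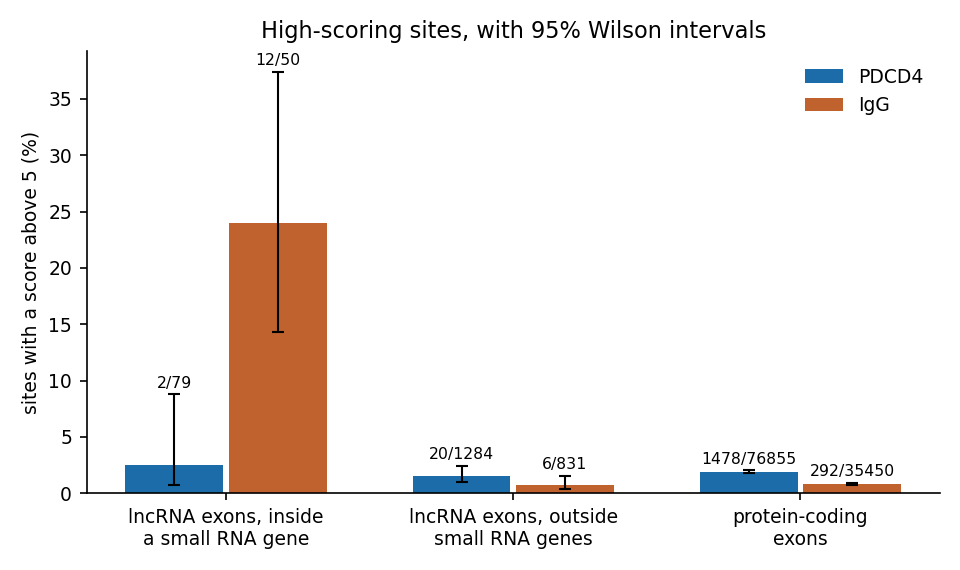
Bars give the percentage of sites with a score above 5 in the PDCD4 (blue) and IgG (orange) lists, for lncRNA sites inside and outside small RNA genes and for protein-coding exons; error bars are 95% Wilson intervals and the numbers are sites over all sites of the class. The IgG bar inside small RNA genes stands at 24.0%, and the other 5 bars lie below 3%. Most of the high sites in that IgG bar come from the single gene SCARNA2.

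ENSG00000270066 is a short lncRNA annotation that spans SCARNA2, a scaRNA gene at chr1:109100193-109100612. It had 17 IgG sites with 107 cDNAs and no listed PDCD4 site, and its site scores ran up to 22. ENSG00000270022, which spans RNU12, the U12 RNA of the minor spliceosome, had 7 PDCD4 cDNAs at 3 sites and 30 IgG cDNAs at 6 sites. ENSG00000292256 spans the vault RNA gene VTRNA1-1 and had 6 PDCD4 and 18 IgG cDNAs. These 3 annotations therefore leaned to IgG in the lists as deposited. According to the methods, IgG sites were removed before PDCD4 peaks were called, which can lower PDCD4 counts at such positions, although some positions remain in both lists. The part of that step in these values was not tested. In sum, sites inside small RNA genes had 234 PDCD4 and 220 IgG cDNAs, a log2 ratio of -0.48 (-0.74 to -0.21), and without SCARNA2 the sign turned, with 234 against 113 cDNAs and 0.48 (0.16 to 0.81). TERC, the telomerase RNA and the single stable ribonucleoprotein RNA of its list annotated as lncRNA, had 3 IgG sites with 6 cDNAs and no PDCD4 site. SCARNA13, inside the host SNHG10, ran the other way, with 42 PDCD4 cDNAs at 16 sites and 16 IgG cDNAs at 4 sites.

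Of the 22 PDCD4 sites with a score above 5, 6 lay at the 5′ starts of snoRNA genes inside host exons, a pattern that was examined after the values were seen. The window from 5 nt before to 2 nt after the first base of a snoRNA or scaRNA gene held 29 PDCD4 sites with 134 cDNAs, 3.63% of the PDCD4 lncRNA cDNAs (3.07 to 4.28), at 15 small RNA genes. In the IgG list it held 6 sites with 16 cDNAs, or 0.679% (0.418 to 1.10), at 5 genes. The log2 ratio was 2.50 (1.75 to 3.25). The mean score there was 4.62 for PDCD4, against 2.71 over all PDCD4 lncRNA sites, and for IgG it was 2.67 both there and over all sites. Because high PDCD4 sites drew attention to this window, its ratio and mean scores describe those same values and test nothing. SNORD65 alone held 36 of the 134 PDCD4 cDNAs. From 3 to 20 nt after the start there were 61 PDCD4 cDNAs and 4 IgG cDNAs, and from 6 to 20 nt before it 10 and 7.

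The examples came from several hosts. The highest score among the sites taken was 25 cDNAs, at chr17:16441223 in SNHG29, 3 nt before the first base of SNORD65. In the window of SNORD65 stood 4 PDCD4 sites with 36 cDNAs and no IgG site. In SNHG12 a PDCD4 site of 11 cDNAs lay 2 nt before SNORA44, where IgG had 3 cDNAs at the first base. In SNHG1 a site listed in both files lay 1 nt before SNORD25, with 7 PDCD4 and 4 IgG cDNAs. SNORD52, in SNHG32, had a PDCD4 site of 7 cDNAs at 3 nt before its start, and SNORD22, also in SNHG1, had 10 PDCD4 cDNAs and no IgG cDNA in the window. None of the 6 IgG sites had a score above 5. Only annotated small RNA genes could be searched, and no snoRNA gene is annotated inside GAS5, where both lists share a site of 7 cDNAs. Since cDNAs are counted where reverse transcription stopped, a stop at the end of a cut snoRNA and a stop at a crosslink cannot be told apart in these lists.

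**Figure D3:**
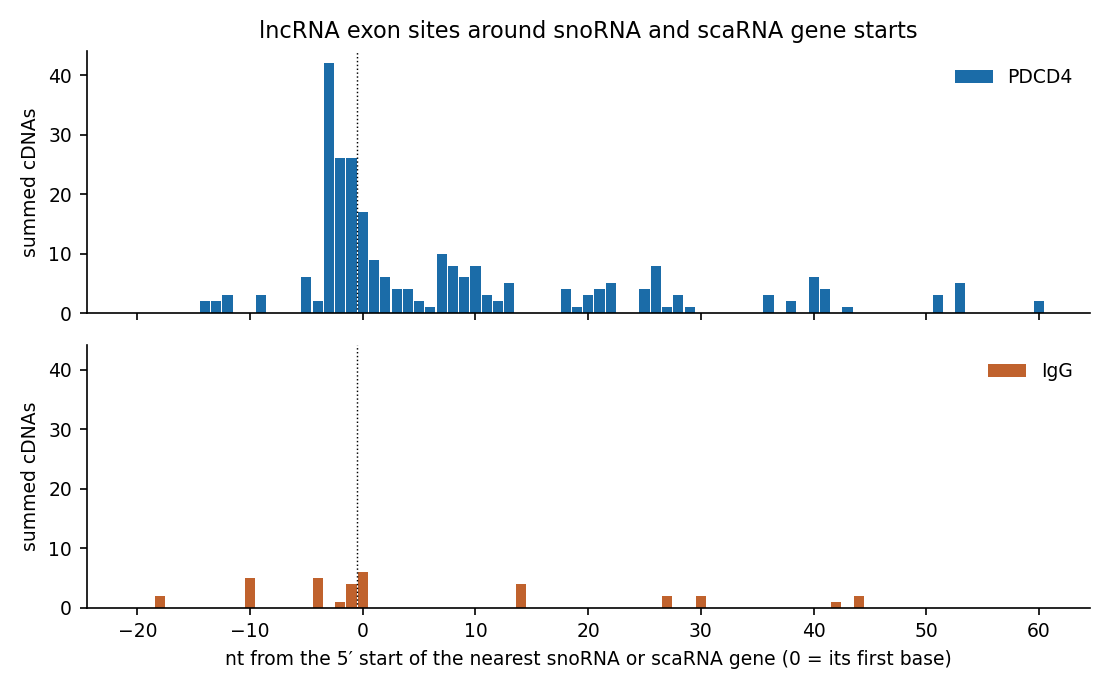
Bars give the summed cDNAs of lncRNA exon sites at each distance from the 5′ start of the nearest snoRNA or scaRNA gene on the same strand (0 is its first base, dotted line), PDCD4 above and IgG below on the same scale. PDCD4 cDNAs peak 3 nt before the start at 42 cDNAs, while no IgG position exceeds 6.

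At the level of genes, sites fell in 674 of 18866 annotated lncRNA genes (3.57%), 504 with a PDCD4 site and 373 with an IgG site. The 203 genes with sites in both lists were 40.3% of the first and 54.4% of the second, and 369 genes had a single site in all. Only 54 genes reached 20 cDNAs over both lists, and ratios are given for these alone, as the log2 of cDNAs per 10000 listed cDNAs with a pseudocount of 1. By a rule of at least 2-fold, 14 were higher in the PDCD4 list, which is 25.9% of them beside 32.7% of all 4206 genes with as many exonic cDNAs, and 11 were lower, 20.4% beside 7.09%. The median log2 ratio was 0.24 for the lncRNA genes and 0.51 for all genes. Of the 14, 12 had an interval above 0, and all 11 lower genes had one below 0. For 3 of the higher genes no IgG site was listed and for 1 of the lower genes no PDCD4 site, so that their ratio depends on the pseudocount and is not given. With exonic cDNAs alone as the total of each list, 10 genes were higher and 19 lower, and the median was -0.34.

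**Figure D4:**
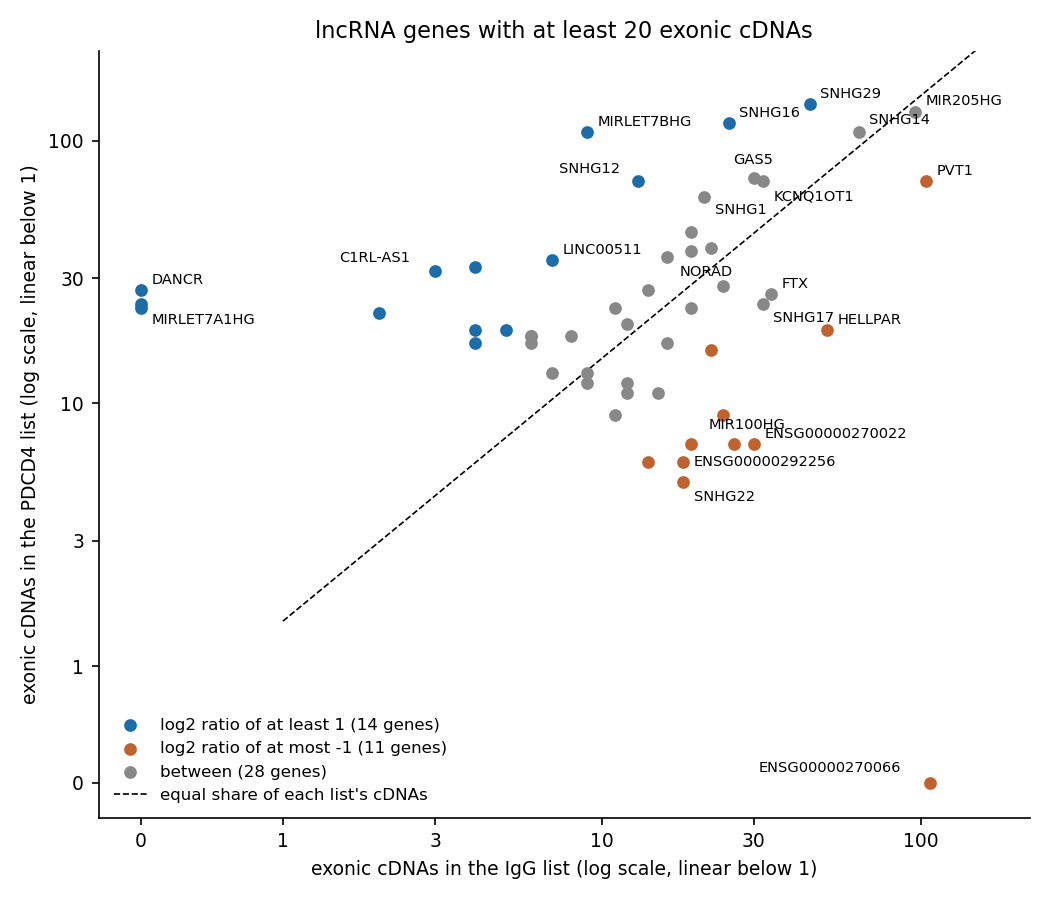
Each point is a lncRNA gene with at least 20 exonic cDNAs, placed by its cDNAs in the IgG list (x) and the PDCD4 list (y), both on log scales that are linear below 1; colours give the 2-fold calls and the dashed line equal shares of both lists. Of 54 genes 53 are drawn, since the naming rule leaves 1 gene out: 14 lie above the line by 2-fold or more, 11 below it, and DANCR, MIRLET7A1HG and PRR7-AS1 sit on the left edge with no IgG cDNA.

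snoRNA hosts held more PDCD4 cDNAs than any other gene list examined. Of 32 annotated host lncRNAs 22 had sites, with 775 PDCD4 and 330 IgG cDNAs and a log2 ratio of 0.66 (0.48 to 0.85), against -0.04 (-0.12 to 0.04) for all other lncRNA genes. The difference of 0.71 had an interval of 0.50 to 0.91. Against protein-coding exons the hosts differed by 0.07 (-0.12 to 0.25), an interval that spans 0. Of 14 hosts with at least 20 cDNAs, 5 were called higher, 1 lower and 8 neither, beside 32.7% higher and 7.09% lower over all genes, so the counts do not set the hosts apart. Their median log2 ratio was 0.77, beside 0.51 over all genes. The list was drawn up with earlier results of these data known and is a description. The small RNA genes carried much of it. Sites more than 20 nt from any annotated small RNA gene gave 456 PDCD4 and 265 IgG cDNAs and a log2 ratio of 0.22 (-0.00 to 0.43). Small RNAs missing from the annotation could not be taken into account, and no snoRNA gene is annotated inside GAS5.

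SNHG29 had 138 PDCD4 cDNAs at 36 sites and 45 IgG cDNAs at 23 sites, a log2 ratio of 1.03 (0.55 to 1.51). It is the gene with the most PDCD4 cDNAs here, and is named LRRC75A-AS1 in the deposited labels. SNHG16 had 117 PDCD4 cDNAs at 41 sites and 25 IgG cDNAs at 9 sites, or 20.3 and 4.33 per kb of exon, and a log2 ratio of 1.61 (1.00 to 2.23). Of its 50 sites in both lists 12 begin a stretch of 30 nt that an exon of another gene also holds. SNHG12 had 70 and 13 cDNAs, with a log2 ratio of 1.77 (0.95 to 2.60). In each of these hosts the PDCD4 list was higher by more than 2-fold with an interval that excludes 0. Part of these cDNAs lay at snoRNA genes. In SNHG29 the stretch printed at the SNORD65 start held 44 PDCD4 cDNAs and no IgG cDNA. In SNHG12, 14 PDCD4 cDNAs lay inside SNORA44, 12 inside SNORA61 and 10 inside SNORA16A, with 6 IgG cDNAs inside SNORA44. In SNHG16, 8 PDCD4 cDNAs lay inside SNORD1A and 7 inside SNORD1C. Ratios of single hosts without such sites were not computed. With exonic cDNAs alone as the total, SNHG29 was at 0.45 and no longer called, while SNHG16 was at 1.04 and SNHG12 at 1.20.

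DANCR, which carries a snoRNA and is a mostly cytoplasmic RNA known for restraining differentiation, had 27 PDCD4 cDNAs at 7 sites and no listed IgG site. Its highest site had 11 cDNAs. SNHG8 was called higher with 19 and 5 cDNAs, but its interval spans 0 (log2 ratio 1.17, -0.15 to 2.49), and with the exonic total it was at 0.59 and not called. Of its PDCD4 cDNAs 15 lay inside SNORA24. SNHG1 had 61 and 21 cDNAs and lay just under the call at 0.93 (0.23 to 1.63). GAS5, a host whose spliced RNA is degraded when ribosomes read it, had 72 and 30 cDNAs (0.67, 0.06 to 1.27). For EPB41L4A-AS1 the values were 18 and 6 cDNAs, with 9 of the PDCD4 cDNAs at 1 site inside SNORA13.

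The other hosts were not called higher. SNHG14, the long transcript that carries the SNORD115 and SNORD116 arrays of the Prader-Willi region, had 108 and 64 cDNAs (0.18, -0.27 to 0.62), less than 1 cDNA per kb of exon in either list. SNHG10 had 45 and 19 cDNAs (0.63, -0.12 to 1.39), of which 42 and 16 lay inside SCARNA13. ZFAS1 had 20 and 12 (0.12, -0.87 to 1.12), with 17 of its PDCD4 cDNAs inside SNORD12B. SNHG17 had 24 and 32 cDNAs, a log2 ratio of -0.97 (-1.72 to -0.22). SNHG26 had 9 and 11 cDNAs. SNHG22 was the 1 host called lower, with 5 PDCD4 cDNAs at 2 sites and 18 IgG cDNAs at 8 sites (-2.23, -3.55 to -0.91).

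Within genes the lists could hold different stretches. In SNHG29 the PDCD4 sites stacked at the SNORD65 start and in the U-rich stretch printed above, whose 12 PDCD4 sites held 43 cDNAs with a maximum of 10, against 1 IgG site of 3 cDNAs. MIR205HG carried 38 PDCD4 and 34 IgG sites, and its highest PDCD4 site and highest IgG site both had 7 cDNAs at different positions.

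**Figure D5:**
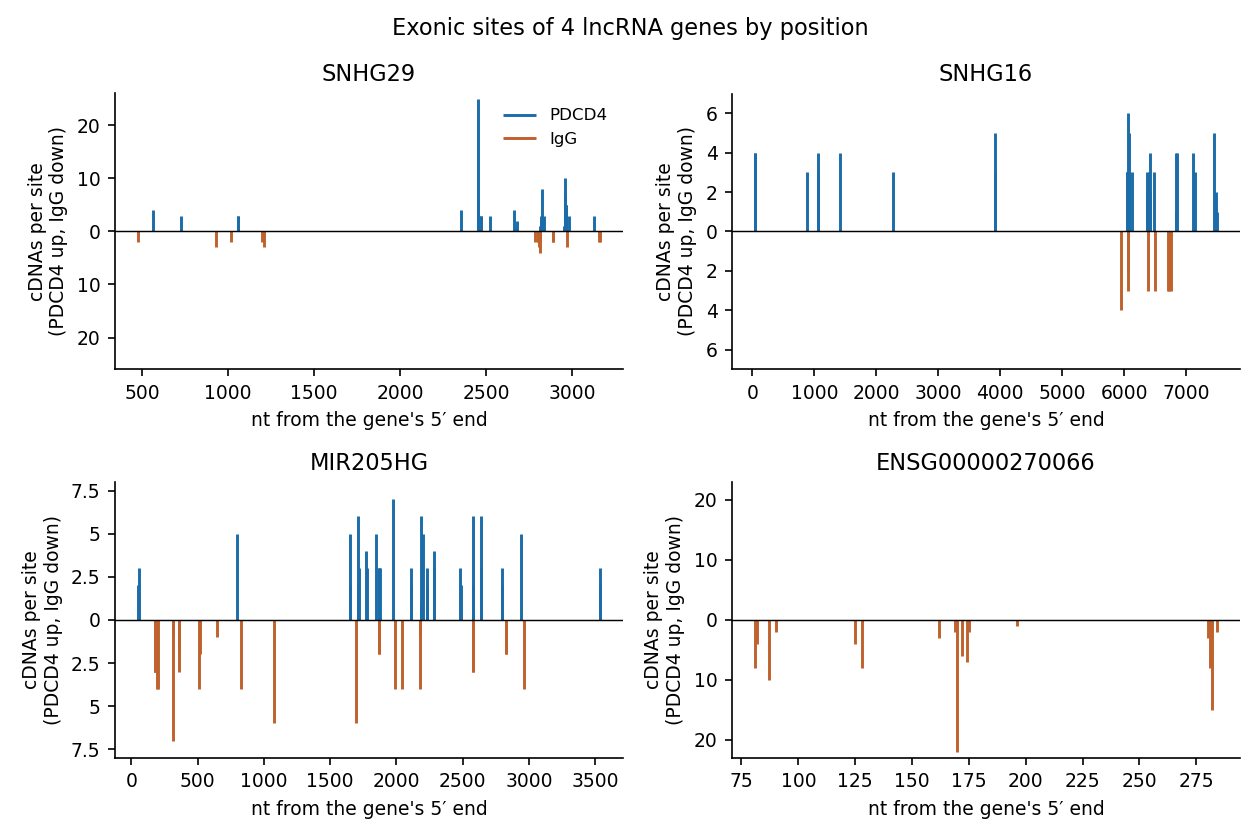
Each line is a site of the named gene at its distance in nt from the gene's 5′ end, with the score in cDNAs drawn upward for PDCD4 (blue) and downward for IgG (orange). SNHG29 shows the site of 25 PDCD4 cDNAs with no IgG counterpart, MIR205HG carries sites of both lists up to 7 cDNAs, and ENSG00000270066 has IgG sites alone, up to 22 cDNAs.

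microRNA host lncRNAs gave 364 PDCD4 and 196 IgG exonic cDNAs from 20 of 83 annotated genes, a log2 ratio of 0.33 (0.07 to 0.58), and 1 gene carried it: without MIRLET7BHG the values were 256 and 187, and the ratio -0.11 (-0.39 to 0.16). MIRLET7BHG, the host of let-7a-3 and let-7b, had 108 PDCD4 cDNAs at 38 sites and 9 IgG cDNAs at 4 sites (2.88, 1.94 to 3.81). Its exonic sites were scattered, with none above 5 cDNAs, and 1 of them, with 5 cDNAs, lay in the let-7b hairpin gene. The introns of the same gene held 365 PDCD4 and 57 IgG sites. MIRLET7A1HG had 24 PDCD4 cDNAs at 9 sites and no listed IgG site.

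MIR17HG, the host of the oncogenic miR-17 to miR-92 cluster, had 17 and 4 cDNAs and was called higher with an interval that spans 0 (1.28, -0.15 to 2.71; 0.70 and not called with the exonic total). The opposite direction was seen for MIR100HG, the host of miR-100, let-7a-2 and miR-125b-1, with 7 PDCD4 and 26 IgG cDNAs (-2.32, -3.46 to -1.18), and for MIR29B2CHG with 7 and 19 (-1.89, -3.07 to -0.71). MIR4435-2HG had 13 and 9 cDNAs. MIR205HG is an epithelial lncRNA that hosts miR-205. Among the genes kept after the named labels were left out, it had the most cDNAs over both lists. It favoured neither list, with 129 PDCD4 and 96 IgG cDNAs (-0.15, -0.52 to 0.23), or 36.5 and 27.2 cDNAs per kb of exon. Of the 7 microRNA hosts with at least 20 cDNAs, 3 were called higher, 2 lower and 2 neither, beside 32.7% higher and 7.09% lower over all genes. Their median log2 ratio was -0.08, beside 0.51 over all genes.

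With all listed cDNAs as the total, lncRNAs known from the cytoplasm and lncRNAs known from chromatin or the nucleus lay on opposite sides. The cytoplasmic list (5 of 6 genes with sites) had 159 PDCD4 and 57 IgG cDNAs, a log2 ratio of 0.91 (0.48 to 1.35), and the nuclear list (5 of 9) had 205 and 211 cDNAs and -0.61 (-0.89 to -0.33). Their difference was 1.52 (1.00 to 2.04), and 1.35 (0.63 to 2.08) without GAS5 and PVT1, the genes with the most cDNAs in each. Without GAS5 the cytoplasmic value rose to 1.12 (0.50 to 1.74), and DANCR, with 27 PDCD4 cDNAs and no IgG cDNA, stayed in that list. A value without DANCR was not computed, so the difference may depend on it. These lists hold few genes, and GAS5 and DANCR stand in the snoRNA host list too. With exonic cDNAs alone as the total, DANCR stayed called higher, but H19 was at 0.30, GAS5 at 0.09 and NORAD at -0.02. In the nuclear list the highest gene, KCNQ1OT1, was then at -0.04. NORAD, which sequesters the Pumilio proteins, had 36 and 16 cDNAs (0.55, -0.27 to 1.38) and 7 of 20 sites whose 30 nt recur elsewhere, and the imprinted H19 had 18 and 6 (0.87, -0.38 to 2.12). CYTOR, below the minimum for a ratio, had 6 and 5 cDNAs.

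In the nuclear list PVT1, the transcript next to MYC, weighed most: it had 70 PDCD4 cDNAs at 28 sites and 104 IgG cDNAs at 40 sites (-1.13, -1.57 to -0.70), and without it the list's log2 ratio was -0.23 (-0.60 to 0.13). FTX and JPX, both from the X-inactivation centre, had 26 and 34 cDNAs (-0.94, -1.67 to -0.22) and 23 and 19 cDNAs. LINC-PINT had 16 and 22 and was called lower, with an interval of the log2 ratio from -1.91 to -0.10. KCNQ1OT1, the imprinted antisense RNA of the KCNQ1 locus, went the other way with 70 and 32 cDNAs (0.54, -0.06 to 1.13). Of the 5 nuclear genes, 2 were called lower and none higher, and of the 4 cytoplasmic genes with at least 20 cDNAs 1, DANCR, was called higher and none lower. Over all genes the shares were 32.7% higher and 7.09% lower, and counts this small are given as a description.

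Among the remaining genes, LINC00511, a lncRNA raised in breast tumours, had 35 PDCD4 cDNAs at 12 sites and 7 IgG cDNAs at 3 sites (1.60, 0.50 to 2.71). C1RL-AS1 had 32 and 3 cDNAs (2.48, 0.98 to 3.97). PRR7-AS1 had 23 PDCD4 cDNAs at 6 sites and no listed IgG site. HELLPAR, a very long single transcript, had 19 PDCD4 and 51 IgG cDNAs (-1.95, -2.69 to -1.20), spread at 0.0927 and 0.249 cDNAs per kb. The genes called that the naming rule leaves out had between 14 and 33 cDNAs in their higher list. They were ENSG00000259001 with 33 PDCD4 and 4 IgG cDNAs, STAG3L5P with 22 and 2 and ENSG00000291117 with 19 and 4 on the higher side. ENSG00000259001 is a short annotation with 638 nt of exon. Whether a stable RNA of a type not counted among the small RNA genes underlies it was not examined. On the lower side TMEM161B-DT had 9 and 24 cDNAs and CTC-338M12.4 had 6 and 14.

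Grouped by symbol, antisense genes had 640 PDCD4 and 302 IgG cDNAs (0.52, 0.32 to 0.71), with 2 of 6 genes called higher and none lower. Divergent genes had 162 and 133 (-0.28, -0.61 to 0.05), with 1 of 3 called lower. Genes with a LINC symbol had 321 and 186 (0.22, -0.04 to 0.48), with 1 of 4 called each way. Beside 32.7% higher and 7.09% lower over all genes, these counts of 3 to 6 genes set no group apart.

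The cDNAs were concentrated in few genes to a like degree in both lists. The 10 largest lncRNA genes of the PDCD4 list held 26.1% of its lncRNA cDNAs (24.7 to 27.5) and those of the IgG list 28.0% (26.2 to 29.8), and 6 genes were among the 10 largest of both. For protein-coding genes the 10 largest held 5.04% and 2.21%. Over the lncRNA genes with an exonic site taken here, exons held 37.0% of the PDCD4 cDNAs in exons and introns together. For IgG the share was 31.4%. In snoRNA hosts the exonic shares were 81.1% (78.5 to 83.4) and 72.7% (68.4 to 76.6), and in the nuclear list 17.9% and 16.3%.

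The bases around the sites were led by U in both lists. At the listed position U made up 44.3% of the PDCD4 sites (41.7 to 47.0) and 47.8% of the IgG sites (44.5 to 51.1), beside 34.4% and 36.1% for coding sequence and 43.3% and 47.5% for all protein-coding exons. The contrast is thus with coding sequence, and sites in protein-coding exons as a whole had nearly the same share. One base downstream G was almost missing, at 3.96% and 4.77%, as it was at coding sites (4.17% and 4.09%), while U and A together made up most of the rest. There, U was 45.7% of the PDCD4 sites (43.1 to 48.4) and 52.3% of the IgG sites (49.0 to 55.6), intervals that do not overlap, and A was 37.1% and 32.1%. In all protein-coding exons U was 42.7% and 47.3% at that base. The most frequent run of 3 bases downstream was UUU, at 12.2% and 14.2%, whereas coding sites were led by ACA for PDCD4 (7.53%) and UCA for IgG (7.87%). The median GC content of the 121 nt around a site was 46.3% (PDCD4) and 45.5% (IgG), beside 51.2% and 47.9% at coding sites.

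The letters GAGACNGAG, which follow a U run in many antisense Alu repeats, were searched in the 121 nt around each site. They occurred on the transcribed strand at 15 PDCD4 sites (1.10%) and 12 IgG sites (1.36%), and on the opposite strand at 8 and 11. For protein-coding exon sites outside the coding sequence the transcribed-strand shares were 1.07% and 0.812%. Of the 15 PDCD4 sites 12 were in snoRNA hosts, 4.74% of the host sites (2.73 to 8.11), and of the IgG sites 3 of 125 host sites held them (2.4%, 0.820 to 6.82), with overlapping intervals. In other lncRNA genes the shares were 0.270% (PDCD4) and 1.19% (IgG).

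Sites were placed on the canonical transcript of their gene, or on its longest transcript with that exon. Last exons held 42.5% of the sites in both lists, first exons 23.7% (PDCD4) and 23.3% (IgG), internal exons 13.4% and 12.4%, and single-exon transcripts 20.5% and 21.9%. Protein-coding sites lay far more often in internal exons, at 36.2% and 26%, and rarely in single exons (1.35% and 1.85%). In first and internal exons the last 60 nt held 10.5% of the PDCD4 (8.11 to 13.5) and 11.5% of the IgG lncRNA sites, beside 16.9% and 17.7% of the exon length. In protein-coding exons the same window held 4.89% and 6.91%, beside 27.5% and 26.4% of the length. In both arms and both classes of gene the window's share of sites was below its share of length.

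The lists seldom met at the same bases. Only 6 lncRNA positions were listed in both, 0.440% of the PDCD4 and 0.681% of the IgG sites. They were in GAS5 (7 cDNAs in each list), SNHG1 (7 and 4), SNHG16 (3 and 2), EPB41L4A-AS1 and MIR205HG (3 and 1 each) and MIR34AHG (2 and 3). A site of the other list lay within 20 nt for 8.66% of the PDCD4 sites (7.28 to 10.3) and 8.51% of the IgG sites (6.85 to 10.5). For protein-coding exon sites these shares were 11.1% and 17.5%. Sites of 1 list that lay within 20 nt of each other formed 1106 PDCD4 groups, 86.5% of them with a single site, and 772 IgG groups, 90.8% with a single site. The largest group had 12 sites in each list. The methods state that IgG sites were removed before PDCD4 peaks were called, a step that would lower any overlap. The 6 shared lncRNA positions, and 539 in protein-coding exons, nevertheless stand in both lists. How far the step acted on the deposited lists was not tested.

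Some sites could come from more than 1 gene. The 30 nt that start at the site recurred in an exon of another gene for 103 PDCD4 sites (7.56%, 6.27 to 9.08) and 56 IgG sites (6.36%, 4.93 to 8.16), beside 3.71% and 3.17% of protein-coding exon sites. The clearest case was PKD1P6-NPIPP1 on chromosome 16, whose site of 10 PDCD4 cDNAs, also inside the exon of ENSG00000291272, has its sequence in NPIPA1 and PKD1P1 among others, so that its gene of origin is uncertain. Sites within 5000 nt downstream of a protein-coding gene made up 8.44% and 9.88%, and sites opposite a protein-coding exon 10.4% and 7.95%.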

How the data were processed

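The iCLIP arms of MCF10A cells (2 PDCD4 and 2 IgG immunoprecipitations) were analysed. Per the methods, the authors mapped reads to the genome of Ensembl release 88 and called sites with iCount, with IgG sites subtracted from PDCD4 before peaks were called. Such a step can lower PDCD4 counts at IgG positions in every comparison of the lists. Shared positions remain in the deposited lists, so how far it acted on them is not known. Each deposited file pools the replicates, and its score is a count of cDNAs per site, not normalized. Scores start at 1, so the filter on scores above 5 that the methods name was not applied to these files and was used only as an alternative. The aligner's settings and the treatment of PCR copies are not given in the sources used here. Pooling hides the spread between replicates, and cDNAs of 1 gene are not independent of each other.

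Sites were placed by strand in GENCODE release 44 exons (GRCh38), and no position lay past a chromosome's end. Small RNA genes were those of the annotation types snoRNA, scaRNA, snRNA, miRNA and misc_RNA, and other types were not counted among them. The lists held 409308 (PDCD4) and 276139 (IgG) cDNAs. Gene levels are cDNAs per 10000 listed cDNAs. Log2 ratios use a pseudocount of 1 for genes and none for classes, genes needed 20 cDNAs over both lists, and a site in exons of several lncRNA genes counted for each of them in gene values. Members, lists and comparisons were chosen with earlier results of these data known. Genes named by rule are the 10 with the most cDNAs of each list, the 5 highest and the 5 lowest ratios, the genes of the 5 highest sites of each list and gene-list members with at least 20 cDNAs, with 1 gene left out. SNHG32, TERC, CYTOR, MIR34AHG, NEAT1, ENSG00000259001, STAG3L5P, ENSG00000291117, TMEM161B-DT, CTC-338M12.4, NPIPA1, PKD1P1 and the small RNA genes were named after their values were seen. The ratio code was tested on simulated data. Alternatives varied the score threshold, the minimum, the total, the transcript set and the windows. Python 3.11.15, numpy 2.4.6, pandas 2.3.3, pysam 0.24.0 and matplotlib 3.10.9 were used.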

Additional observations from a re-analysis of the deposited data

How the results depend on the processing

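No paired analysis was possible because each arm is deposited as 1 pooled list, and for the same reason no replicate could be left out. The share comparison was the least stable result. The log2 ratio of the site share was -1.33 with scores above 5 and -0.45 with exonic sites alone as the total. That of the cDNA share turned to -1.70 with scores above 5, -0.0034 with scores above 2, -0.49 with the exonic total, -0.12 on canonical transcripts and, chosen after seeing the data, -0.041 without snoRNA hosts. For the share of high sites (PDCD4, then IgG), scores above 2 gave 51.2% and 48.4%, scores above 10 gave 0.220% and 0.227%, and leaving out the 10 largest genes gave 0.797% and 0.958%; without small RNA genes, chosen after seeing the data, the IgG share was 0.722%. Genes called higher and lower numbered 1 and 2 with scores above 5, 4 and 3 with a minimum of 50 cDNAs, and 34 and 22 with a minimum of 10, and 19 were lower with the exonic total. The largest 5 genes held 16.2% and 19.7%, the largest 20 held 36.2% and 38.3%, and with scores above 5 the largest 10 held 89.6% and 100%. U at the site was 50% and 44.4% with scores above 5. The share before exon ends was 6.93% and 6.69% in 30 nt, 16.4% and 17.1% on canonical transcripts, and 6.67% and 0% with scores above 5. Sites of the other list lay within 5 nt for 3.67% and 4.43% and within 50 nt for 12.5% and 12.8%. Matches of 20 nt to another gene were found for 15.4% and 12.8%, and of 40 nt for 3.96% and 4.43%. The remaining 32 values stayed within their interval or within 1.5 times of the count. With 22 and 18 sites above a score of 5, values at that threshold rest on few sites, and 12 of the 18 IgG sites lay inside small RNA genes. The causes of these shifts were not tested.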
